A study of Sus scrofa with 10 samples.

Results

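The proteasome is the protease that degrades ubiquitin-tagged proteins, and its genes were followed through pig livers with and without liver failure after hepatectomy. Every gene of the deposited expression table whose symbol consists of PSM, a letter from A to G and a number was taken, which gave 42 genes of the 31905 in the table. They comprised 6 genes of the 20S alpha ring, 5 constitutive genes of the 20S beta ring, 3 immunoproteasome genes, PSMB11 (the beta subunit of the thymus), 6 ATPases of the 19S cap, 11 other 19S subunits, 2 chaperones of 19S assembly, 4 activators, 1 inhibitor and 3 chaperones of 20S assembly. PSMB5 and PSMB6 were not analysed here, since no gene of the table carried those symbols.

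RNA of pig (Sus scrofa) liver was sequenced in 10 libraries, all labelled wild type and all labelled with the same tissue. Control was normal liver on day 0 (n = 3). NoBAL was liver in failure after hepatectomy on day 2, without a bioartificial liver (n = 2), and EmptyBAL was such liver on day 3 with a bioartificial liver that held no cells (n = 2). hiHepD4 and hiHepD8 were livers on day 4 (n = 1) and day 8 (n = 2) of treatment with a bioartificial liver that held human induced hepatocytes, which are hepatocyte-like cells made from another human cell type. The design text sets NoBAL against normal liver to find genes of liver failure, follows those genes in the treated livers, and uses EmptyBAL to account for the blood circuit. Each group was taken on a day of its own, so day and treatment cannot be told apart. The labels do not say whether the libraries of a group came from separate animals or pooled tissue, so the p-values measure the spread between these libraries, which may be technical.

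The 20S core particle is a barrel of alpha and beta rings, and some of its beta subunits carry the cutting sites. The 19S cap recognises ubiquitin chains, removes them and uses its ATPases to unfold the substrate and feed it into the core. In cells exposed to interferon, and in many immune cells at rest, PSMB8, PSMB9 and PSMB10 take the places of PSMB5, PSMB6 and PSMB7 to form the immunoproteasome, whose peptides suit class I antigen presentation, and the activator made of PSME1 and PSME2 is induced along with them.

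Levels are given in FPKM, fragments per kilobase of gene relative to the size of the library. Summed over genes, the libraries held 439925 to 829970 FPKM as deposited, and the number of reads behind them is unknown. Replicates correlated at Pearson 0.992 to 0.994 in Control, 0.956 in NoBAL, 0.893 in EmptyBAL and 0.992 in hiHepD8, over log2(FPKM + 1) of the genes tested. EmptyBAL replicate 1 stood apart. The hepatocyte regulator HNF4A was at 3.15 FPKM in EmptyBAL replicate 1 and 46.6 in replicate 2, and the urea cycle enzyme CPS1 at 1.60 and 105, against 105 to 112 and 284 to 311 in Control. The labels name hepatocytes as the cell type, and summed over 8 hepatocyte genes the FPKM was 85780 to 88530 in Control, 15590 and 14660 for NoBAL, 3784 and 6890 for EmptyBAL, 26320 for hiHepD4, and 24630 and 24520 for hiHepD8. Changes below are differences of mean log2(FPKM + 1), with limma's standard error and the Benjamini-Hochberg adjusted p over the 12180 genes tested; a gene was called at an adjusted p under 0.05.

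Of the 42 genes, 40 were tested, and each of these had at least 1 FPKM in every library, with a lowest value of 2.39. PSMA8, an alpha subunit known from the testis, was listed at 0 in every library. PSMB11 was listed at 0 in all but NoBAL replicate 2, where it was at 0.103 FPKM. In Control the 20S genes spanned a wide range per length, from 5.58 FPKM for PSMA4 to 303 for PSMA7, and the immunoproteasome genes were at 4.65 FPKM for PSMB9, 17.1 for PSMB8 and 29.5 for PSMB10. The median over the 40 genes was 28.7 FPKM in Control, 77.6 in NoBAL, 39.7 in EmptyBAL, 34.7 in hiHepD4 and 24.7 in hiHepD8. NoBAL had the highest mean of the 5 groups for 33 of the 40 genes and the lowest for 0. The 5 genes with the highest mean in EmptyBAL were PSMB8, PSMB9, PSMB10, PSME1 and PSME2, the immunoproteasome and its activator, while PSME4 was highest in hiHepD8 and PSMD10 in hiHepD4. For PSMB10, PSME1 and PSME2 the EmptyBAL libraries overlapped those of NoBAL. hiHepD8 had the lowest mean for 27 genes and Control for 9.

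**Figure D1:**
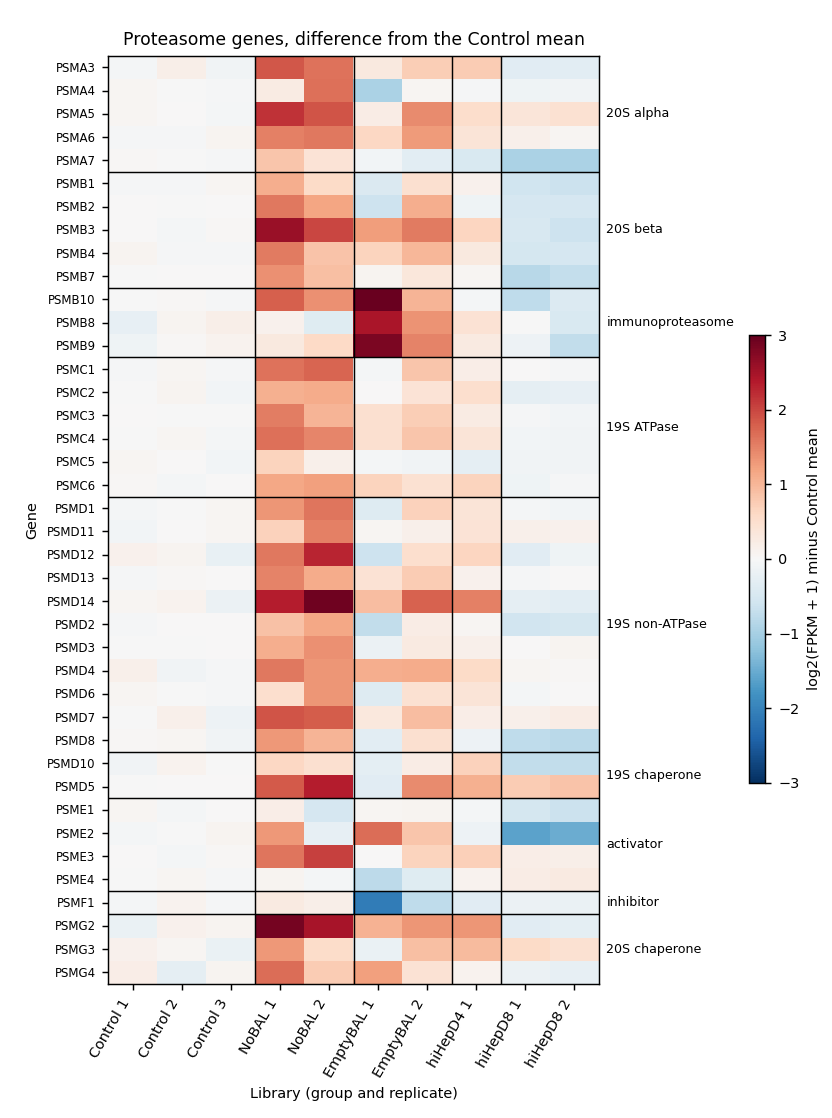
Each cell gives log2(FPKM + 1) of 1 of the 40 tested genes (vertical axis, grouped by class) in 1 library (horizontal axis) minus the Control mean of that gene, with red for higher and blue for lower. The NoBAL columns are red for most genes (library medians over the 40 genes 1.35 and 1.21). They are less so for the activators (0.76 and -0.15), the inhibitor (0.28 and 0.17) and the immunoproteasome (0.29 and 0.60). The strongest red of EmptyBAL lies in the immunoproteasome genes.

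In failing liver without a device, nearly the whole constitutive proteasome was higher than in normal liver. NoBAL against Control gave 31 of 40 genes called higher and 0 called lower, where 25.2% of all genes tested were called higher and 24.2% lower. At an unadjusted p under 0.05, limma had 32 of the 40 higher and 0 lower. The median change was 1.22 for the proteasome genes and 0.04 for all genes, and 1.58 and 0.33 with the FPKM of every library scaled to an equal sum. In 36 of the 40 both NoBAL libraries lay above all 3 Control libraries, against 38.2% of all genes. The rise covered 9 of 10 constitutive 20S genes, 16 of 17 subunits of the 19S cap, both 19S chaperones and 2 of 3 20S chaperones, but 1 of 3 immunoproteasome genes and 1 of 4 activators.

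Among the 20S genes the largest rises were those of PSMB3 and PSMA5. PSMB3, a beta subunit without a cutting site (chromosome 12, 23347060 to 23357616 in Sscrofa11.1), was at 76.9, 72.6 and 78.2 FPKM in Control and at 459 and 309 in NoBAL. Both NoBAL libraries lay far above the Control libraries, and the change was 2.30 (SE 0.22, adjusted p = 0.00016). PSMA5, an alpha ring subunit (chromosome 4, 110695429 to 110717308), was at 15.7, 15.1 and 14.3 FPKM in Control and at 70.8 and 58.6 in NoBAL, a rise of 2.03 (SE 0.32, adjusted p = 0.0014). PSMB7, the beta subunit that cuts after basic residues and whose place PSMB10 takes (chromosome 1, 265172257 to 265235389), was at 158, 159 and 161 FPKM in Control and at 415 and 298 in NoBAL, a rise of 1.14 (SE 0.21, adjusted p = 0.0029). The smallest called 20S change was the 0.62 of PSMA7. PSMA4 was not called, with 5.42 to 5.80 FPKM in Control against 6.86 and 19.8 in NoBAL, so that its NoBAL replicates differed more from each other than replicate 1 did from Control.

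In the 19S cap the changes ranged from 0.41 for the ATPase PSMC5, the only one of 17 not called, to 2.63 for PSMD14. PSMD14, the deubiquitinase that strips the ubiquitin chain from a substrate as it enters (chromosome 15, 68107379 to 68208884), was at 8.84, 9.10 and 7.40 FPKM in Control and at 46.9 and 70.0 in NoBAL (SE 0.28, adjusted p = 0.00022). The libraries of the groups were well separated. The largest rise among the ATPases was that of PSMC1 (chromosome 7, 112027904 to 112041360), from 39.3, 42.5 and 39.8 FPKM to 127 and 138, a change of 1.68 (SE 0.25, adjusted p = 0.0012). The median change was 1.24 over the 6 ATPases and 1.29 over the 11 other subunits, close to the 1.30 of the 10 constitutive 20S genes.

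The chaperones that build the complex included the largest rise of any proteasome gene. PSMG2, which helps assemble the alpha ring (chromosome 6, 96879009 to 96893551), was at 3.39, 4.47 and 4.30 FPKM in Control and at 35.6 and 26.7 in NoBAL, a rise of 2.66 (SE 0.19, adjusted p = 3.9e-05). PSMD5, a chaperone of the 19S base (chromosome 1, 260847403 to 260868767), was at 6.86, 6.96 and 7.03 FPKM in Control and at 27.6 and 39.97 in NoBAL, a rise of 2.11 (SE 0.44, adjusted p = 0.0056). Both genes were low in normal liver and stood clear of it in each NoBAL library. PSMG3, another 20S chaperone, was higher in both NoBAL libraries but was not called (0.93, adjusted p = 0.058).

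Of the immunoproteasome genes, PSMB10 rose in NoBAL and PSMB8 and PSMB9 were not called. PSMB8 was at 14.0, 17.8 and 19.3 FPKM in Control and at 18.4 and 12.95 in NoBAL, with overlapping libraries and a change of -0.12 (SE 0.34, adjusted p = 0.78) that was 0.22 with equal sums. PSMB9 was at 4.15, 4.76 and 5.03 FPKM in Control and at 5.87 and 7.56 in NoBAL (0.44, SE 0.37, adjusted p = 0.35). PSMB10, which lies apart from the other 2 on chromosome 6 (28544910 to 28547609), rose from 29.2, 30.5 and 28.9 FPKM to 105 and 77.3, a change of 1.58 (SE 0.49, adjusted p = 0.03). PSMB8 and PSMB9 sit on chromosome 7 at 25058456 to 25061666 and 25072133 to 25077508, with the peptide transporter gene TAP1 between them. Of the activators, PSME3, which forms a nuclear activator of its own, rose by 1.83 (SE 0.23, adjusted p = 5e-04), from 13 to 13.96 FPKM in Control to 43.3 and 59.3 in NoBAL. PSME1 was at 129, 120 and 126 FPKM in Control and at 145 and 87.5 in NoBAL, and PSME2 at 54.6, 56.0 and 60.1 in Control and at 142 and 47.4 in NoBAL. For both genes 1 NoBAL library lay above and the other below normal liver, and neither was called. PSME4, whose product is another activator of the core, and PSMF1, the proteasome inhibitor, were not called either (0.02 and 0.23).

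Most other genes of the core and the cap also rose in NoBAL. PSMA3 was at 37.1 to 45.4 FPKM in Control and at 148 and 127 in NoBAL (1.74), PSMA6 at 46.2 to 50.5 and at 137 and 145 (1.54), and PSMB4 at 122 to 133 and at 374 and 229 (1.22). Among the cap genes PSMD12 (1.93), PSMD7 (1.86) and PSMC4 (1.55) also rose, and the smallest called change of a cap subunit was the 0.92 of PSMD6. PSMG4, the remaining 20S chaperone, rose by 1.22, from 64.1 to 89.3 FPKM to 250 and 133. PSMD10, a 19S chaperone, had the smallest change of all called genes of the set (0.55, adjusted p = 0.035).

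The NoBAL replicates were not higher or lower throughout relative to each other. Of the 40 genes, 25 were higher in replicate 1 and 15 in replicate 2, and 2 differed at least 2-fold (5%, against 9.05% of all genes). All 5 constitutive beta genes and all 3 20S chaperones were higher in replicate 1, whereas 7 of the 11 non-ATPase cap genes were higher in replicate 2. The beta genes had a median difference from Control of 1.57 in replicate 1 and 0.90 in replicate 2, and the non-ATPase genes of 1.31 and 1.37.

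Cycling cell genes were higher in NoBAL together with the proteasome genes, with 5 of 5 tested called and summed FPKM of 236 and 184 against 4.97 to 6.26 in Control, and 6 of 8 hepatocyte genes fell. The cycling sums were also above Control in EmptyBAL (99.8 and 105) and hiHepD4 (92.1). The median change of the proteasome genes against Control was 0.37 and 0.27 there, against 1.22 in NoBAL. Summed pan-leukocyte genes were at 37.6 and 57.9 FPKM in NoBAL against 61.9 to 64.8 in Control. The part of these differences in the proteasome result was not tested, and in tissue RNA fewer cells of a type and less RNA per cell cannot be told apart. The 3 Control libraries resembled each other closely, as did the 2 of hiHepD8; with each of these groups counted as 1 library, 1 proteasome gene (PSMG2, adjusted p = 0.048) of 40 was called in NoBAL against Control, and 16 had an unadjusted p under 0.05.

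**Figure D2:**
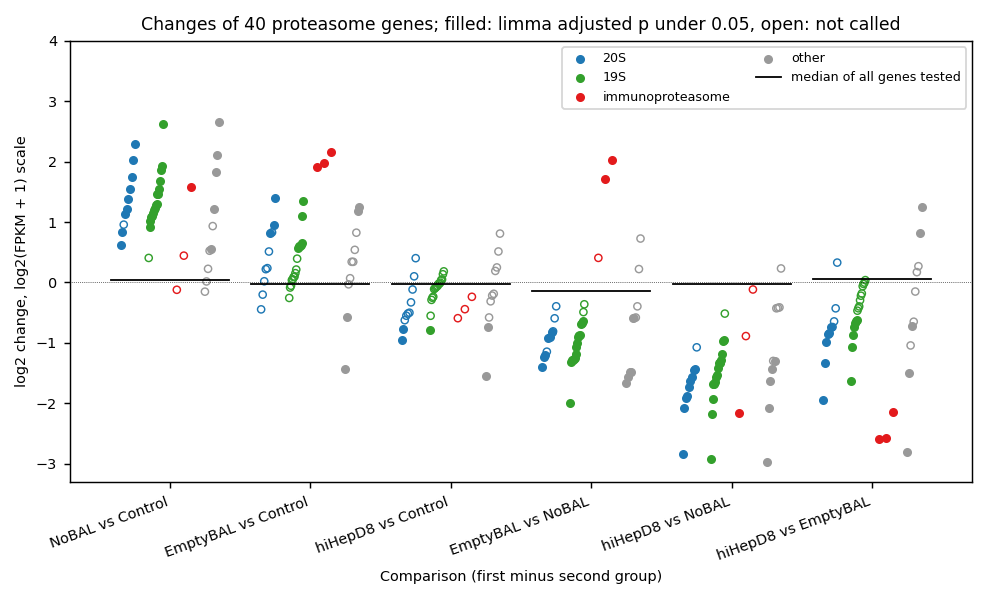
Each point is 1 of the 40 genes, placed by its change on the log2(FPKM + 1) scale (vertical axis) in the comparison named below it (horizontal axis) and coloured by class, with filled points for an adjusted p under 0.05 in limma and a black line for the median of all genes tested. In NoBAL against Control 31 points are filled and all lie above the line, and in EmptyBAL against NoBAL the 2 filled points above the line are PSMB8 and PSMB9.

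With the empty device all 3 immunoproteasome genes were higher than in normal liver, and how many constitutive genes were called depended on the scale of the libraries. EmptyBAL against Control gave 15 genes called higher and 2 lower of 40, where 24.4% of all genes were called higher and 29.3% lower, and a median of 0.37 against -0.03 for all genes. The rises covered the 3 immunoproteasome genes, 3 of 10 constitutive 20S genes (PSMA6, PSMB3 and PSMB4) and 7 of 17 subunits of the 19S cap. With equal sums they covered the 3 immunoproteasome genes, 8 of the 10 and 12 of the 17, and the difference between the classes was not tested. On that scale the median of all genes was 0.65 rather than -0.03, and the share of all genes called is not given here. The libraries did not overlap, on the higher side, for 20 of the 40 genes, against 34.2% of all genes.

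PSMB8 was at 97.1 and 44.8 FPKM in EmptyBAL, a rise of 1.90 (SE 0.34, adjusted p = 0.0024). PSMB9 was at 38.7 and 14.9 FPKM, a rise of 2.15 (SE 0.37, adjusted p = 0.002). PSMB10 was at 237 and 60.4 FPKM, a rise of 1.98 (SE 0.49, adjusted p = 0.011). In each of the 3 genes EmptyBAL replicate 1 was more than 2-fold above replicate 2, and both were above every Control library. Without EmptyBAL replicate 1 the changes were 1.35, 1.49 and 1.01, so the direction did not rest on that library. That fit leaves 1 EmptyBAL library, with no spread of its own, so it cannot show whether the calls rested on replicate 1. PSME2 (chromosome 7, 75154570 to 75157871) was at 185 and 101 FPKM and rose by 1.25 (SE 0.44, adjusted p = 0.044), but without replicate 1 its change was 0.82. PSME1, its partner in the activator ring and its neighbour on the chromosome (75161830 to 75164531, a gap of 3958 bases), was at 130 and 133 FPKM, just above the 120 to 129 of Control, and was not called.

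The genes that fell in EmptyBAL against Control were PSMF1 and PSME4. PSMF1 (chromosome 17, 34118324 to 34164723) was at 38.7, 43.5 and 39.2 FPKM in Control, at 49.3 and 45.6 in NoBAL and at 8.71 and 23.3 in EmptyBAL, a change of -1.43 against Control (SE 0.34, adjusted p = 0.0091). PSME4 (chromosome 3, 87231510 to 87337709) was at 5.80 to 6.19 FPKM in Control and at 3.03 and 4.39 in EmptyBAL (-0.58, SE 0.16, adjusted p = 0.017). With equal sums neither was called, PSMF1 at -0.65 (adjusted p = 0.19) and PSME4 at 0.11 (adjusted p = 0.71), so that the direction of PSME4 turned. With equal upper quartiles PSMF1 was called and PSME4 was not (-0.38, adjusted p = 0.088). In FPKM as deposited both EmptyBAL libraries were below all Control libraries, with replicate 1 the lower. They were named after their values had been seen, as the members that went against most others.

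The EmptyBAL libraries differed from each other for many proteasome genes. Of the 40, 32 were higher in replicate 2, and 11 differed at least 2-fold between the replicates (27.5%, against 19.8% of all genes). The median difference from Control was 0.05 in replicate 1 and 0.71 in replicate 2. A fit without either EmptyBAL library leaves 1 in that group, with no spread of its own, so its calls are not counted here. Leaving out Control replicate 1 or 2 left 11 and 10 calls. The count also depended on the scale of the libraries: with equal sums, 30 genes were called higher and 0 lower, while the median of all genes moved to 0.65 and that of the proteasome genes to 1.18. The 30 can therefore not be read as a rise of these genes alone. Replicates of Control and of hiHepD8 counted as 1 library each left 0 genes called by limma, with 3 at an unadjusted p under 0.05.

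Leukocyte genes were higher in EmptyBAL along with the immunoproteasome genes. Of 6 pan-leukocyte genes, 5 rose against Control, and their summed FPKM was 275 and 175 in EmptyBAL against 61.9 to 64.8 in Control, 37.6 and 57.9 for NoBAL, 51.6 for hiHepD4, and 62.8 and 60.5 for hiHepD8. Of 8 macrophage genes, 5 rose, with sums of 917 and 1085 FPKM against 422 to 457 in Control and 129 and 121 for NoBAL. The T and NK cell genes summed to 75.7 and 46.8 FPKM for EmptyBAL and to 22.0 to 23.6 in Control, and the neutrophil genes to 626 and 101 against 0.362 to 1.32. The neutrophil sums were also above Control in NoBAL (233.2 and 26.3 FPKM) and in hiHepD4. All 3 neutrophil genes tested were called higher in NoBAL against Control, where PSMB8 and PSMB9 were not called. Within the T and NK sums, NKG7 alone was at 53.4 and 25.9 FPKM in EmptyBAL against 5.25 to 6.78 in Control. Of the 6 T and NK genes tested against Control, 3 rose and 1 fell, with a median change of 0.28. No pan-leukocyte or macrophage gene was listed at 0 in any library, whereas S100A8, S100A12, CD3D and CD3G were among the markers at 0 in some. The part of these cells in the immunoproteasome result was not tested.

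**Figure D3:**
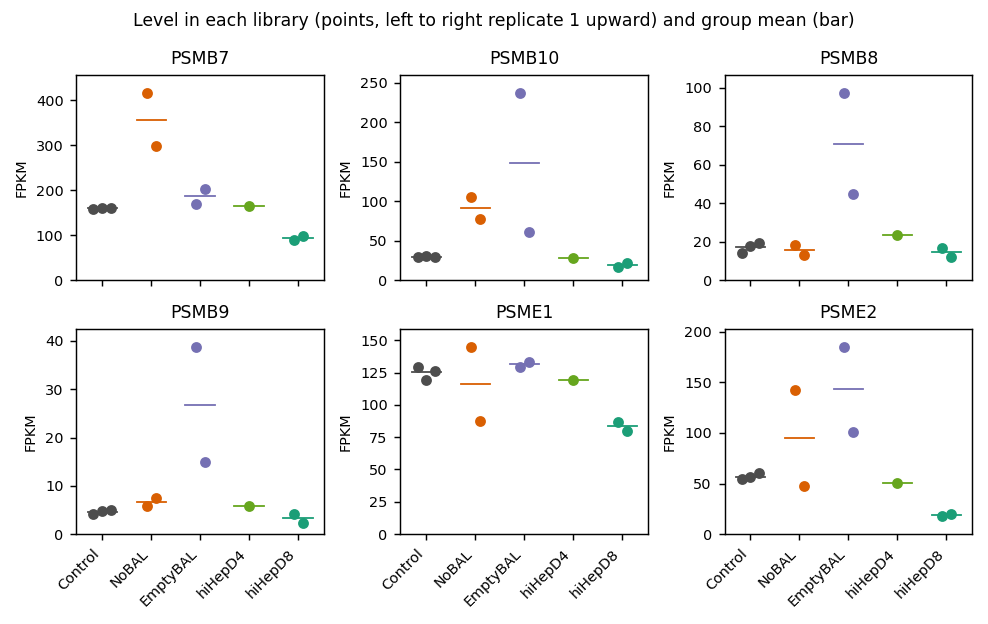
FPKM (vertical axis, from 0) of 6 genes in each library, with a point per library, a bar at the group mean and the 5 groups along the horizontal axis. PSMB7 is highest in NoBAL (415 and 298), whereas PSMB8, PSMB9 and PSMB10 reach their highest values in EmptyBAL replicate 1 (97.1, 38.7 and 237).

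Between EmptyBAL and NoBAL, PSMB8 and PSMB9 were higher in EmptyBAL, and most genes of the core and the cap were called lower there as deposited, though 0 of these were with equal sums. EmptyBAL against NoBAL gave 25 genes called lower, where 21.4% of all genes were called lower, and 2 called higher, where 12.6% were. The 2 that rose were PSMB8 (2.02, SE 0.37, adjusted p = 0.0082) and PSMB9 (1.71, SE 0.40, adjusted p = 0.017). Among the 25 that fell were 6 of 10 constitutive 20S genes, 14 of 17 subunits of the 19S cap, and PSMG2, PSME3 and PSMF1. The largest fall was that of PSMD12, a subunit of the 19S lid, from 30.2 and 50.5 FPKM to 5.87 and 13.9, a change of -1.99 (SE 0.38, adjusted p = 0.0095). PSMB10 was not called (0.41, adjusted p = 0.58), and without EmptyBAL replicate 1 its change was -0.57.

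The rise of PSMB8 and PSMB9 over NoBAL held on other scales of the libraries, but most of the falls did not. With equal sums, PSMB8, PSMB9, PSME1 and PSME2 were called higher and PSMG2 alone lower, with medians of -0.44 for the proteasome genes and 0.21 for all genes. With the upper quartiles of the libraries made equal, 2 were called higher and 9 lower, with medians of -0.62 and 0.05. The distance between the proteasome genes and all genes was therefore -0.75, -0.65 and -0.67 on the 3 scales. A limma fit of these 2 groups alone called 0 genes, and so did the fit with Control and hiHepD8 counted as 1 library each, both with 13 genes at an unadjusted p under 0.05.

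Ratios within a library do not depend on such scaling, and they are given as a description. PSMB10 over PSMB7, the immune form over the constitutive form at the same site, was 18% to 19.1% of FPKM in Control, 25.3% and 25.9% for NoBAL, 139% and 29.8% for EmptyBAL, 17.1% for hiHepD4, and 19% and 22.6% for hiHepD8. PSMB8 over the mean of the 5 constitutive beta genes was 13.4% to 18.4% in Control, 5.75% and 5.94% for NoBAL, 73.1% and 24.5% for EmptyBAL, 19.3% for hiHepD4, and 24.9% and 18% for hiHepD8. NoBAL was thus the lowest group for this ratio and EmptyBAL replicate 1 the highest library, with EmptyBAL replicate 2 within the range of hiHepD8. PSMB9 over the same mean was 3.97% to 4.8% in Control, 1.83% and 3.47% for NoBAL, and 29.1% and 8.14% for EmptyBAL. PSME2 over PSME1 was 42.2% to 47.5% in Control, 98.3% and 54.2% for NoBAL, 143% and 76.1% for EmptyBAL, 42.7% for hiHepD4, and 20.8% and 24.4% for hiHepD8, so that no library of hiHepD8 reached any library of another group.

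Over the genes taken, the ratio of core to cap was lowest at day 8. The core is partial here, since the selection by symbol did not take PSMA1, PSMA2, PSMB5 and PSMB6. The summed FPKM of the 10 constitutive 20S genes over that of the 17 subunits of the 19S cap was 1.41, 1.38 and 1.44 in Control, 1.59 and 1.19 for NoBAL, 1.52 and 1.47 for EmptyBAL, 1.30 for hiHepD4, and 1 and 0.995 for hiHepD8. Both hiHepD8 libraries were the lowest of the 10. PSMA7 is the most abundant of these genes, and without it the ratio was 0.931 to 0.984 in Control and 0.742 and 0.735 in hiHepD8, still the lowest.

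**Figure D4:**
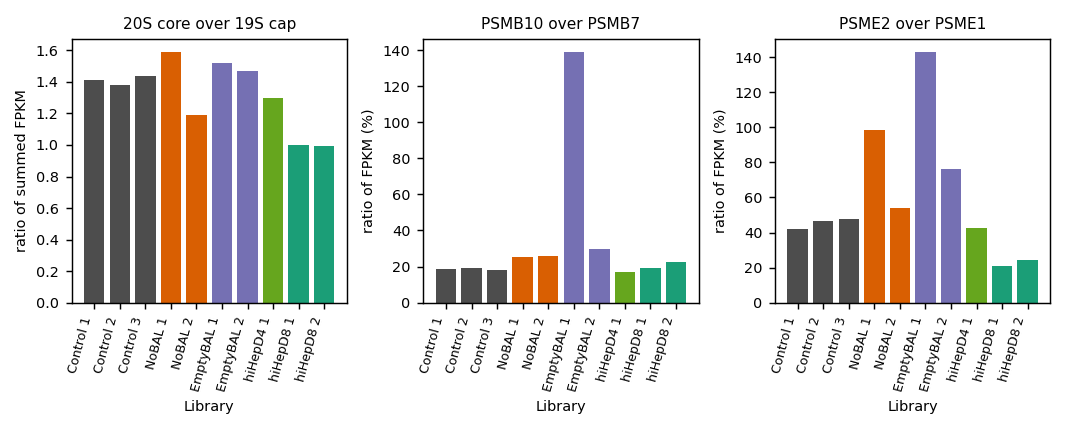
Bars give, for each of the 10 libraries along the horizontal axis, the summed FPKM of 20S over 19S genes (left), PSMB10 over PSMB7 in percent (middle) and PSME2 over PSME1 in percent (right), all from 0. The 2 hiHepD8 bars are the lowest on the left (1 and 0.995) and on the right (20.8% and 24.4%), and EmptyBAL replicate 1 is the highest in the middle and on the right (139% and 143%).

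On day 4 of the device with hepatocytes the constitutive genes lay nearer to normal liver than to NoBAL. hiHepD4 is a single library, so its values have no replicate check and no test. Against the Control mean the median difference was 0.27 over the 40 genes and 0.03 over all genes, with 31 of the 40 above Control. At least 2-fold higher on the log2(FPKM + 1) scale were 3 genes, where 8.19% of all genes were, and 0 were 2-fold lower, where 11.2% of all genes were. The 3, no larger a share than the 8.19% of all genes, were PSMD14 (26.0 FPKM, a difference of 1.52), PSMG2 (11.5 FPKM, 1.32) and PSMD5 (15.6 FPKM, 1.06). Against the NoBAL mean the median was -1.04 and 21 genes were 2-fold lower, where 7.56% of all genes were. The immunoproteasome genes were at 23.4 FPKM for PSMB8, 5.76 for PSMB9 and 28.1 for PSMB10, near the Control values and below both EmptyBAL libraries. PSMD10, a 19S chaperone also known as gankyrin, was at 9.73 FPKM, above the 9.32 and 8.29 of NoBAL. Against hiHepD8 the day 4 library was higher as deposited for 37 of the 40 genes, with a median difference of 0.50 (0.07 over all genes). At least 2-fold higher were 6 genes, a count near the 12.3% of all genes that were. The 6 were PSMD14 (1.81), PSMG2 (1.63), PSMD10 (1.43), PSME2 (1.39), PSMB3 (1.20) and PSMA3 (1.09). All genes together summed to 813633 FPKM in hiHepD4 and to 564816 and 547312 in hiHepD8. Of these sums the 40 genes took 0.271% in hiHepD4 and 0.271% and 0.278% in hiHepD8, so by that share the day 4 library was not higher.

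The hiHepD4 value lay between the means of Control and NoBAL for 29 genes, below both for 8 and above both for 3.

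By day 8 the proteasome genes were far below NoBAL. hiHepD8 against NoBAL gave 31 of 40 genes called lower and 0 higher, where 24.8% of all genes were called lower and 22.5% higher. At an unadjusted p under 0.05, limma had 34 lower and 0 higher. The median change was -1.45, against -0.03 for all genes, and in 37 genes both hiHepD8 libraries lay below both NoBAL libraries, against 41% of all genes. The fall covered 9 of 10 constitutive 20S genes, 16 of 17 subunits of the 19S cap and 2 of 3 20S chaperones, but 1 of 3 immunoproteasome genes. With Control and hiHepD8 each counted as 1 library, 1 gene was called (PSMG2, adjusted p = 0.046), and 24 had an unadjusted p under 0.05.

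PSMG2 fell most, to 2.98 and 3.13 FPKM, a change of -2.97 against NoBAL (SE 0.20, adjusted p = 5.7e-05). PSMD14 was at 6.87 and 6.55 FPKM (-2.92, SE 0.30, adjusted p = 0.00028). PSMB3 was at 54.5 and 48.7 FPKM (-2.85, SE 0.24, adjusted p = 0.00012). None of these 3 genes was called against normal liver (-0.31, -0.29 and -0.55, adjusted p = 0.24, 0.47 and 0.096), and with equal sums those differences were 0.15, 0.23 and 0.02. PSMA3, the alpha subunit with the largest fall (chromosome 1, 187342231 to 187371149), was at 148 and 127 FPKM in NoBAL and at 31.8 and 31.9 in hiHepD8 (-2.07, SE 0.22, adjusted p = 0.00028). PSMC1 was at 41.2 and 39.7 FPKM (-1.68, SE 0.28, adjusted p = 0.0021), within its Control range. PSMB10 was at 16.9 and 22.0 FPKM (-2.17, SE 0.54, adjusted p = 0.013), PSMD10 at 2.99 and 3.003 FPKM (-1.29, SE 0.20, adjusted p = 0.0014), and PSME2 at 18.1 and 19.5 FPKM (-2.07, SE 0.48, adjusted p = 0.0097). The last 3 were below every other library of the study.

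PSMB8 (16.7 and 12.1 FPKM) and PSMB9 (4.07 and 2.39 FPKM) were not called against NoBAL, with changes of -0.12 (0.09 with equal sums) and -0.89. PSMD5 stayed at 12.4 and 13.5 FPKM, between normal liver and NoBAL, and was not called either (-1.30, adjusted p = 0.058). Cycling cell genes summed to 4.07 and 4.65 FPKM in hiHepD8, against 236 and 184 in NoBAL, and all 5 tested fell with the proteasome genes; their part in the result was not tested.

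Set against normal liver, few proteasome genes were called in hiHepD8, a share no higher than that of all genes. Of the 40, 5 were called lower, where 17.1% of all genes were, and 0 higher, where 15.1% were, with a median of -0.20 against -0.02 for all genes. At an unadjusted p under 0.05, limma had 7 lower and 0 higher. The 5 called were PSME2, PSMA7, PSMD8, PSMB7 and PSMD10, with changes of -1.55, -0.95, -0.78, -0.77 and -0.74. PSME2 stood at 18.1 and 19.5 FPKM against 54.6 to 60.1 in Control, and PSMA7, an alpha subunit (chromosome 17, 61566373 to 61571516), at 157 in both libraries against 313, 302 and 295. PSMB7 was at 88.8 and 97.1 FPKM, below the 158 to 161 of Control, and all 5 constitutive beta genes had both hiHepD8 libraries below every Control library. Over the 40 genes this was so for 22, against 41.3% of all genes. These orders are those of FPKM as deposited. The changes of the 5 beta genes against Control ranged with equal sums from -0.2 (PSMB7) to 0.05 (PSMB2 and PSMB4), and none was called. PSMD5 was the furthest above normal liver (0.81) but was not called (adjusted p = 0.2).

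These calls against Control changed with the fit, the libraries and the scale. The counts below are set against those of the main fit only, since the share of all genes called in each setting is not given here. Fitting Control and hiHepD8 alone called 21 genes, 5 higher and 16 lower, and counting each of these groups as 1 library called 0 by limma, with 0 at an unadjusted p under 0.05. Leaving out any Control library left 1 call, and leaving out either hiHepD8 library left 0. With equal sums, PSME2 alone was called lower and PSMD4, PSME4 and PSMG3 higher, and the median over the proteasome genes was 0.36, below the 0.46 of all genes. With equal upper quartiles PSMA7, PSMD10 and PSME2 were called lower and 0 higher, with a median of 0.01 against 0.15. PSME2 was the one gene called lower on all 3 scales.

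In hiHepD8 against EmptyBAL all 3 immunoproteasome genes were called lower, as were 6 of 10 constitutive 20S genes and 7 of 17 subunits of the 19S cap. There were 19 genes called lower, where 17.6% of all genes were, and 2 called higher, where 22.6% were, with a median of -0.65 against 0.05 for all genes. PSMB8, PSMB9 and PSMB10 fell, with changes of -2.14, -2.60 and -2.58, and so did PSME2 (-2.80, adjusted p = 0.0034). The 2 that rose were PSMF1 (1.24, adjusted p = 0.031) and PSME4 (0.82, adjusted p = 0.0079), at 35.6 and 35.2 FPKM and at 7.17 and 7.34 FPKM in hiHepD8. The 4 falls and 2 rises had the same direction without EmptyBAL replicate 1, where the rise of PSMF1 was 0.58 and 1 EmptyBAL library was left. With equal sums 21 genes were called lower and 0 higher by limma, and PSMF1 (1.03, adjusted p = 0.099) and PSME4 (0.67, adjusted p = 0.08) were no longer called. Without hiHepD8 replicate 1, 7 genes were called, and without replicate 2, 9, all of them lower. Fitting these 2 groups alone called 6 genes, all lower, and counting Control and hiHepD8 as 1 library each called 0, with 7 at an unadjusted p under 0.05.

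The table holds 3 further subunit genes under an identifier alone, which a reference table names PSMA1, PSMA2 and PSMD9, so the selection by symbol did not take them. PSMA1 was at 17.4, 17.8 and 18.98 FPKM in Control, at 61.6 and 93.1 in NoBAL and at 15.8 and 16.4 in hiHepD8. Its changes were 2.01 in NoBAL against Control and -2.17 in hiHepD8 against NoBAL, both called. PSMA2 rose and fell likewise (1.45 and -1.66, both called). PSMD9, a 19S chaperone, rose by 0.77 in NoBAL but was at 16.7 and 16.4 FPKM in hiHepD8, near the 18.7 of both NoBAL libraries, and was not called between them (-0.17, adjusted p = 0.65). The 19S chaperones PSMD5 and PSMD9 were thus both not called in that comparison, whereas PSMD10 fell.

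Genes that work with the proteasome or feed it ubiquitin moved in both directions. Of 35 listed, 29 were tested, and in NoBAL against Control 12 rose and 4 fell (25.2% and 24.2% of all genes did), with a median of 0.36. POMP, the maturation factor of the 20S core, was at 25.3 to 27.0 FPKM in Control and at 73.9 and 47.8 in NoBAL (1.17, adjusted p = 0.0037). The cap-bound deubiquitinases UCHL5 and USP14 rose by 1.72 and 1.24, the ubiquitin receptor ADRM1 by 0.80, and VCP, UFD1 and NPLOC4, which together extract substrates for degradation, by 0.99, 1.55 and 1.14. Among the genes that fell were the polyubiquitin gene UBB (-1.34), the ubiquitin ligase UBE3C (-1.42) and NFE2L1 (-0.78, adjusted p = 0.014). NFE2L1 encodes a transcription factor known to induce proteasome genes when proteasome capacity is short, and it was at 72.1 to 75.7 FPKM in Control, 35.0 and 52.7 for NoBAL, 39.7 and 37.6 for EmptyBAL, 74.8 for hiHepD4, and 72.7 and 73.8 for hiHepD8. As deposited, the NoBAL and EmptyBAL libraries were below all others, and this order was not checked with equal sums. Over all genes NoBAL replicate 2 summed to 526565 FPKM and EmptyBAL to 496390 and 439925, against 823762 to 829970 in Control.

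In hiHepD8 against NoBAL 15 of these 29 genes fell, where 24.8% of all genes did, and 3 rose, where 22.5% did, with a median of -0.64. POMP, UCHL5, USP14, ADRM1, VCP, UFD1 and NPLOC4 were among those that fell, and NFE2L1, NFE2L2 and UBE3C were those that rose. UBB was not called there (0.12). At 439 and 468 FPKM, it was lower in hiHepD8 than in Control (-1.23, adjusted p = 0.025). In EmptyBAL against Control 3 rose and 11 fell (24.4% and 29.3% of all genes). Against NoBAL 13 fell in EmptyBAL and 0 rose by limma (21.4% and 12.6% of all genes), with 17 lower and 1 higher at an unadjusted p under 0.05.

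Immunoproteasomes are known for making peptides for class I antigen presentation. Of 17 other genes listed for that pathway, 9 were tested, and in EmptyBAL against Control 2 rose (ERAP2 and TAPBPL), where 24.4% of all genes did, and 1 fell (CANX), where 29.3% did. The listed genes of the class I heavy chains, TAP2 and TAPBP were not among the 9, so these counts do not cover them. TAP1, the neighbour of PSMB8 and PSMB9, was at 6.74 to 7.49 FPKM in Control, at 4.66 and 12.9 in NoBAL, at 9.14 and 10.8 in EmptyBAL, and at 6.96 and 6.27 in hiHepD8, and was not called in any of the 6 comparisons. B2M, the light chain of class I molecules, fell in NoBAL against Control (-0.94, adjusted p = 0.017), where PSMB8 and PSMB9 were not called. In hiHepD8 against Control 4 of the 9 fell and 0 rose by limma (17.1% and 15.1% of all genes), with 5 lower and 0 higher at an unadjusted p under 0.05.

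Regulators of the interferon and NF-kB pathways, 16 tested of 18 listed, gave 0 rises by limma (1 at an unadjusted p under 0.05) and 5 falls in NoBAL against Control (25.2% and 24.2% of all genes), and 3 rises and 6 falls in EmptyBAL against Control (24.4% and 29.3%). IRF1, an interferon-induced factor that acts on immunoproteasome genes, was at 84.4 to 97.0 FPKM in Control, 6.05 and 8.38 for NoBAL, 36.2 and 21.7 for EmptyBAL, 10.8 for hiHepD4, and 6.48 and 6.89 for hiHepD8. Normal liver was highest for IRF1 and lower than EmptyBAL for PSMB8, while EmptyBAL rose over NoBAL for IRF1 (1.84, adjusted p = 0.0041) as for PSMB8. IFNG, which encodes interferon gamma, was listed at 0 in 7 of the 10 libraries and reached 0.135 FPKM.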

How the data were processed

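RNA of 10 pig liver libraries was measured by sequencing; per the labels' protocols, total RNA was extracted with Trizol and made into paired-end TruSeq libraries. The authors deposited 1 table of FPKM per gene and library; the table's header does not name the unit, which was read from the values and the Cufflinks-style columns. Tools named in the submitters' processing notes are HTSeq, HISAT2 and Cufflinks, and the genome builds named there are mm10 and Sscrofa11.1; their roles are not stated. No source used here says whether reads were counted by strand, and values of overlapping genes are therefore uncertain. Since FPKM are relative, genes can appear lower where a few abundant ones take more of a library. Low values did not fall on steps of whole fragments (72 of 2430 and 73 of 2846 genes at a shared ratio, within 0.1%), so the depth is unknown.

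The deposited FPKM were tested on the log2(FPKM + 1) scale, whose pseudocount of 1 makes changes of low genes look smaller. Genes had to reach 1 FPKM in 2 or more libraries, and the 12180 that did entered 1 limma model (version 3.58.1, R 4.3.3; mean-variance trend, 5 group means, 5 residual degrees of freedom, prior 2.73), tested on simulated data first. Tests were two-sided, with Benjamini-Hochberg adjustment within a comparison. No test was made for hiHepD4 (1 library). Each proteasome symbol had 1 entry in the table. Positions are those of RefSeq on Sscrofa11.1, matched by symbol for 42 of 42 genes.

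Named were PSMB7, PSMB8, PSMB9, PSMB10, PSME1 and PSME2 and, in each class, the called gene with the largest rise and the one with the largest fall in NoBAL against Control and in hiHepD8 against NoBAL; others were named for standing at the end of a range or against their class after their values were seen. The genes, the lists and the tests were chosen with earlier results of these data known. Other settings tried were another pseudocount, no filter, other scalings, other sets of libraries and a replicate block. Figures were drawn with matplotlib 3.10.9 in Python 3.11.15 (numpy 2.4.6, pandas 2.3.3).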

Additional observations from a re-analysis of the deposited data

How the results depend on the processing

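The counts of called proteasome genes kept within 1.5 times under a pseudocount of 0.1, genes of 1 symbol summed, and limma without a mean-variance trend. All counts in this section are set against those of the main fit, without the share of all genes called in each setting. Without a filter on low values, hiHepD8 against Control gave 3 calls instead of 5. With equal library sums, EmptyBAL against Control gave 30 instead of 17 and EmptyBAL against NoBAL 5 instead of 27, and with upper-quartile scaling EmptyBAL against NoBAL gave 11 and hiHepD8 against Control 3. With only the compared groups fitted, hiHepD8 against Control gave 21, EmptyBAL against NoBAL 0 and hiHepD8 against EmptyBAL 6. With Control and hiHepD8 counted as 1 library each, NoBAL against Control and hiHepD8 against NoBAL gave 1 call each, and each of the other 4 comparisons gave 0, with 3, 0, 13 and 7 genes at an unadjusted p under 0.05 for EmptyBAL against Control, hiHepD8 against Control, EmptyBAL against NoBAL and hiHepD8 against EmptyBAL; fewer residual degrees of freedom are part of that setting.

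Replicate numbers are shared by Control, NoBAL and EmptyBAL, but no label ties them to an animal or batch. Same-numbered libraries correlated in their deviations from the group means at -0.05 to 0.01 with Control and at 0.14 between NoBAL and EmptyBAL. With the replicate block in a fit of these 3 groups, NoBAL against Control gave 16 calls, EmptyBAL against Control 6, and EmptyBAL against NoBAL 0, with 20 at an unadjusted p under 0.05. The same 3 groups without the block, a setting chosen after seeing the data, gave 27, 13 and 17.

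Leaving out 1 library at a time gave 24 to 29 calls in NoBAL against Control, 10 to 26 in EmptyBAL against Control, 0 to 1 in hiHepD8 against Control, 21 to 34 in EmptyBAL against NoBAL, 25 to 32 in hiHepD8 against NoBAL and 7 to 29 in hiHepD8 against EmptyBAL. The highest count in EmptyBAL against Control was that without EmptyBAL replicate 1. Leaving out 1 library of NoBAL, EmptyBAL or hiHepD8 left 1 in that group, with no spread of its own. Counts from those fits therefore cannot show whether the calls rested on the library left out.

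Single genes turned direction as follows, and the cause was not tested. In NoBAL against Control, PSMB8 was 0.22 with equal library sums and ranged from -0.36 to 0.12 with 1 library left out, PSME1 was 0.20 and -0.51 to 0.21 likewise, PSME2 ranged from -0.26 (without NoBAL replicate 1) to 1.31, and PSME4 from -0.05 to 0.08, with -0.01 under upper-quartile scaling. In hiHepD8 against NoBAL, PSMB8 was 0.09 with equal library sums, 0.12 with upper-quartile scaling, and -0.36 to 0.12 with 1 library left out (0.10 without hiHepD8 replicate 2). PSME4 in EmptyBAL against Control was 0.11 with equal library sums, and PSMB10 in EmptyBAL against NoBAL was -0.57 without EmptyBAL replicate 1 and 1.38 without replicate 2. Depth is unknown, so what it limits cannot be given.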
